A study of Homo sapiens with 6 samples.

Results

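The IFIT and IFITM genes are 8 rows of the deposited gene count table, picked by gene name (IFIT1, IFIT2, IFIT3, IFIT5, IFITM1, IFITM2, IFITM3 and IFITM10) out of 58735 genes. They were read in 6 libraries of 786-O, an established human clear cell renal carcinoma line that lacks a working VHL gene. The 3 sh-CBX7 libraries carried a hairpin that targets CBX7, a chromobox subunit of Polycomb complexes, and the 3 sh-Control libraries a control hairpin. The table's own headers call the first group siCBX7, and the labels give no hairpin sequence, clone, time point or culture. P-values therefore measure the spread between these libraries, which may be technical.

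Both families belong to the antiviral programme that interferon switches on. Interferon receptors act through Janus kinases on transcription factors, among them STAT2 and IRF9, that bind a DNA element of repeated GAAA blocks, the interferon-stimulated response element, in front of their target genes. IFIT proteins are cytosolic and grip foreign RNA by its unusual end, whereas IFITM proteins sit in the plasma and endosomal membranes and hinder viral fusion. Tumour cells can express both families without infection.

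Library totals ran from 16473407 to 18868874 counts in sh-CBX7 and from 16384151 to 18006814 in sh-Control. CBX7 averaged 7.44 ± 0.67 CPM in sh-CBX7 and 12.2 ± 0.98 CPM in sh-Control (SD, n = 3 each; log2 fold change -0.71, SE 0.13, edgeR adjusted p = 5.41e-05). CPM is a count scaled to the depth of its library, here with TMM factors. The summed level of 8 renal carcinoma line markers was 3735 to 3980 CPM in sh-CBX7 and 3489 to 3659 CPM in sh-Control. Within that list KRT8 (log2 fold change 0.44) and KRT18 (0.43) rose, while PAX8 (-0.32) and PAX2 (-0.49) fell. The other 4 did not pass at an edgeR adjusted p below 0.05. Of 13 immune markers, PTPRC, CD3E, MS4A1 and CD2 had 0 counts in each library, and the list's sum was 27.6 to 31.1 CPM in sh-CBX7 against 53.7 to 66.5 CPM in sh-Control, most of it LAPTM5. The endothelial list summed to 120.9 to 132 CPM in sh-CBX7 and 75.8 to 91.6 CPM in sh-Control, mainly EGFL7, with CDH5 at 0. EGFL7 rose by 0.61 on the log2 scale. At low levels, ROBO4 (1.15) and PECAM1 (0.70) rose too, with means of 2.90 and 2.38 CPM in sh-CBX7. KDR (0.87) did not pass. The fibroblast list summed to 11.2 to 12.9 CPM in sh-CBX7 and 11.1 to 12.6 CPM in sh-Control, but its genes moved in opposite directions. LUM rose (log2 fold change 0.73), COL1A1 (-1.03) and PDGFRA (-1.88) fell, and PDGFRB (-0.24) did not pass. The part of the immune and endothelial sums in the members' values was not tested. In RNA from whole cultures, more cells that express a gene and more RNA per cell cannot be told apart.

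All 8 members passed the filter on low counts. In sh-CBX7 all rose except IFITM10, which fell: IFIT1, IFIT2, IFIT3, IFIT5, IFITM1, IFITM2 and IFITM3 passed the test as higher. These are 7 members called higher and 1 called lower at an edgeR adjusted p below 0.05, where 53.3% of 14573 tested genes were called, 26.1% as higher and 27.2% as lower. In each of the 8 the sh-CBX7 and sh-Control libraries did not overlap, as held for 29.1% of tested genes on the higher side and 29.9% on the lower side. The median log2 fold change of the 8 was 1.55, beside -0.01 over all tested genes. Summed, the 8 took 1532 ± 20.3 CPM in sh-CBX7 and 543 ± 18.1 CPM in sh-Control (SD, n = 3 each), 2.82 times as much.

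**Figure D1:**
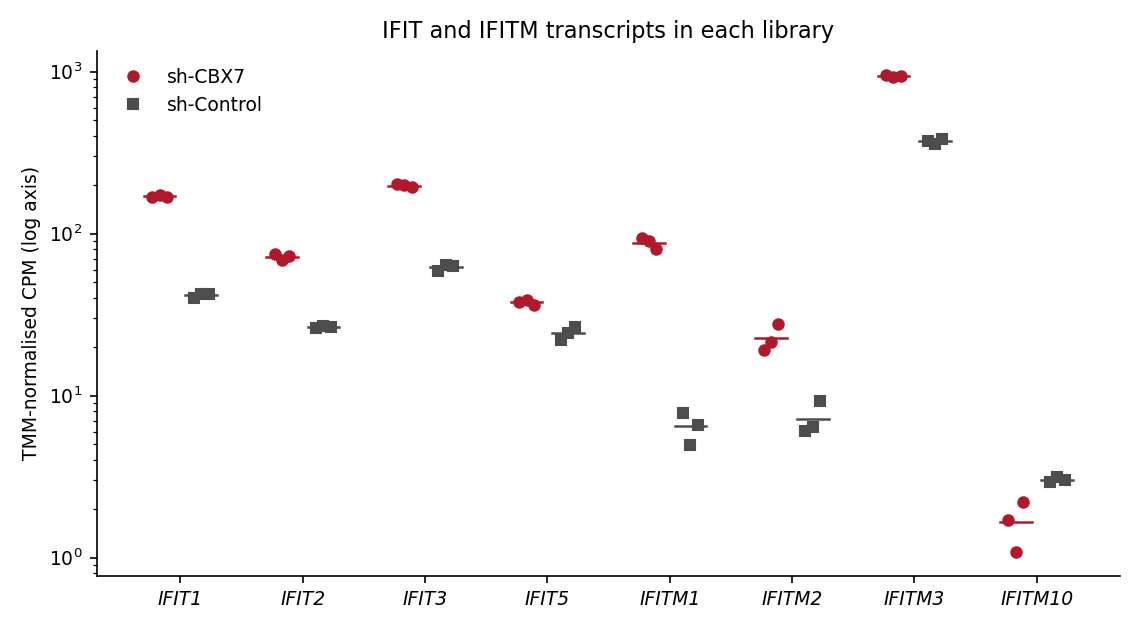
TMM-normalised CPM (log axis) of the 8 members in each library, sh-CBX7 (circles) left of sh-Control (squares), with bars at the group means. The 3 sh-CBX7 libraries lie above the 3 sh-Control libraries for 7 members and below them for IFITM10.

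**Figure D2:**
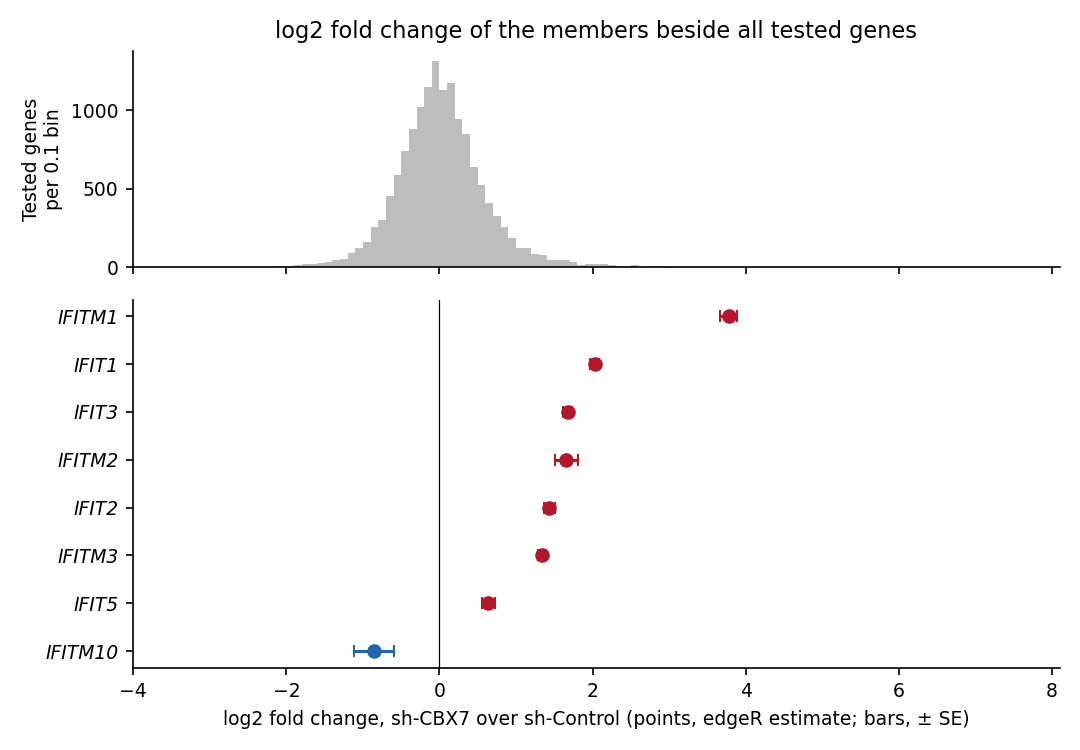
Upper panel, distribution of the log2 fold change (sh-CBX7 over sh-Control) of 14573 tested genes; lower panel, the edgeR estimate of each member with its SE. IFITM1 stands at 3.78 and IFITM10 at -0.86, while the other members lie between 0.64 and 2.03.

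The IFIT genes form a cluster on chromosome 10. IFIT1, IFIT2, IFIT3 and IFIT5 lie there on the plus strand (GRCh38, chr10:89283694-89421001 from the start of IFIT2 to the end of IFIT5), and the near-silent relative IFIT1B lies between IFIT3 and IFIT1. Stretches of the windows around the RefSeq starts (GRCh38.p14, plus strand, 5′ to 3′) are given for IFIT1, IFIT3, IFIT5 and IFIT1B. IFIT2 had no window. Capitals mark each match to GAAA, 2 bases of any kind and GAAA again, or to its reverse complement (TTTC, 2 bases, TTTC). This is the core of the interferon-stimulated response element, searched on both strands from 250 bases before to 50 bases after a start.
IFIT1, chr10:89392446-89392545: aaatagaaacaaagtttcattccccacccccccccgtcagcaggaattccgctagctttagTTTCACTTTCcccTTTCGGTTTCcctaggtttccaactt
IFIT3, chr10:89327794-89327893: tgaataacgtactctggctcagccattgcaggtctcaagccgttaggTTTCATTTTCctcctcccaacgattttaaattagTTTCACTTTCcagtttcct
IFIT5, chr10:89414548-89414577: gTTTCGATTTCttaagTTTCAGTTTCtgag
IFIT1B, chr10:89377956-89378055: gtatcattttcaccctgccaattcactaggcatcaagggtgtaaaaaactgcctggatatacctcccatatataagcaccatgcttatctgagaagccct

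IFIT1 and IFIT3 had 2 matches each in these stretches. IFIT5 had 3 matches in its window, of which the stretch shows 2. That IFIT5 stretch overlaps an annotated exon, and the span of the minus-strand gene LIPA reaches into it. A second annotated start of IFIT3 also had 2 matches, and the IFIT1B window had none. All 5 members with a RefSeq window (IFIT1, IFIT3, IFIT5, IFITM1 and IFITM3) held the motif, as did 4.12% of 10368 tested genes with a window and 3.57% of all 35116 windows. Among 23 other interferon-induced effector genes with a window, 16 held it (69.6%). A match describes the letters and does not show that a factor binds there.

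IFIT1 (ENSG00000185745, chr10:89392546-89406486), which binds RNA whose cap lacks ribose methylation, was at 168, 174 and 167 CPM in sh-CBX7, against 39.9, 42.4 and 42.6 CPM in sh-Control. Its lowest sh-CBX7 library was 3.92 times its highest sh-Control library. IFIT1 rose 4.07-fold (log2 fold change 2.03, SE 0.06, edgeR adjusted p = 3.27e-17). A higher log2 fold change was found for 1.05% of tested genes.

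IFIT3 (ENSG00000119917, chr10:89327894-89340971), which stabilises IFIT1 on RNA, was the most abundant of the 4. Its libraries held 203, 198 and 193 CPM in sh-CBX7, against 59.1, 63.9 and 63.3 CPM in sh-Control. The groups lay far apart and each was tight, and IFIT3 rose by 1.67 on the log2 scale (SE 0.06, edgeR adjusted p = 5.99e-16). IFIT2 (ENSG00000119922, chr10:89283694-89309276), a partner of both that is known to favour cell death, was at 74.4, 68.5 and 72.5 CPM in sh-CBX7 and at 26.3, 26.9 and 26.6 CPM in sh-Control. It rose by 1.43 on the log2 scale (SE 0.07, edgeR adjusted p = 1.41e-13). Of the exon bases of IFIT2, 10.3% are shared with other annotated genes, and those of IFIT1, IFIT3 and IFIT5 are shared with none.

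IFIT5 (ENSG00000152778, chr10:89414586-89421001), which works alone and binds uncapped RNA, moved least. Its libraries were at 37.9, 39.2 and 36.1 CPM in sh-CBX7, against 22.1, 24.2 and 26.4 CPM in sh-Control. The lowest sh-CBX7 library was 1.37 times the highest sh-Control library. The rise was 0.64 on the log2 scale (SE 0.09, edgeR adjusted p = 1.73e-06), and 12.3% of tested genes had a higher value.

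The remaining rows of the IFIT family carried almost no reads. IFIT1B had 0, 2 and 1 counts in sh-CBX7 and 0 counts in each sh-Control library. The pseudogenes IFIT6P and IFIT1P1 had 0 counts in each of the 6 libraries. A count of 0 allows up to 3 counts, which is 0.159 to 0.184 CPM in these libraries; intervals and limits of this kind cover counting error only.

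IFITM2, IFITM1 and IFITM3 sit side by side near the end of the short arm of chromosome 11 (GRCh38, chr11:307631-327537 from the start of IFITM2 to the end of IFITM3). IFITM10 lies further in, at chr11:1732410-1750591 on the minus strand. The start regions of IFITM1 and IFITM3 held 2 matches each to the same motif, and short stretches that hold 1 match of IFITM1 and both of IFITM3 are given as above, each on the strand of its gene. Both stretches overlap annotated exons.
IFITM1, chr11:314024-314053, plus strand: acacttctgaGAAACTGAAAcgacagggga
IFITM3, chr11:320884-320913, minus strand: gGAAAAGGAAActgttgaGAAACCGAAAct

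IFITM1 (ENSG00000185885, chr11:313506-315272), which acts mostly at the plasma membrane, changed more than any other member. It had 1778, 1491 and 1418 counts in sh-CBX7 and 130, 90 and 108 counts in sh-Control. In CPM this was 94.4, 90.0 and 80.0 in sh-CBX7, against 7.81, 4.95 and 6.63 in sh-Control. Even the lowest sh-CBX7 library was 10.2 times the highest sh-Control library. IFITM1 rose 13.7-fold (log2 fold change 3.78, SE 0.11, edgeR adjusted p = 1.5e-17), the twentieth highest log2 fold change of all tested genes.

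IFITM3 (ENSG00000142089, chr11:319669-327537), the endosomal restriction factor of the family, supplied most of its transcripts in both groups. It was at 958, 931 and 939 CPM in sh-CBX7, against 374, 356 and 385 CPM in sh-Control. The spread within each group was small beside the gap, and the rise was 2.53-fold (log2 fold change 1.34, SE 0.05, edgeR adjusted p = 1.91e-15). A lincRNA on the opposite strand shares 21.3% of the exon bases of IFITM3 but had only 9 counts over the 6 libraries.

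IFITM2 (ENSG00000185201, chr11:307631-315272), a close relative of IFITM3 that also acts in endosomes, was at 19, 21.3 and 27.9 CPM in sh-CBX7, against 6.07, 6.38 and 9.20 CPM in sh-Control. Replicate 3 was the highest library in both groups, and the groups did not overlap. IFITM2 rose by 1.66 on the log2 scale (SE 0.15, edgeR adjusted p = 5.60e-09). Reads of IFITM1, IFITM2 and IFITM3 can be split between these similar genes, so the values of each are less certain than their sum. In the annotation IFITM1 and IFITM2 also share a last exon of 351 bases on the same strand, which is 32.5% of the exon bases of IFITM1 and 22.7% of those of IFITM2. How the counting treated reads in it is not given in the sources used here.

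IFITM10 (ENSG00000244242, chr11:1732410-1750591), whose function is less well known, was the exception. It had 32, 18 and 39 counts in sh-CBX7 and 49, 57 and 49 counts in sh-Control. As CPM this was 1.7, 1.09 and 2.20 in sh-CBX7, against 2.95, 3.13 and 3.01 in sh-Control. The sh-CBX7 libraries were lower and more spread, and the log2 fold change was -0.86 (SE 0.26, edgeR adjusted p = 0.00798). Without sh-CBX7 replicate 2, its lowest library, the value was -0.64 and the call was lost (edgeR adjusted p = 0.0525). A protein-coding annotation on the same strand overlaps IFITM10 and shares 22.2% of the IFITM10 exon bases. That annotation had 44 counts over the 6 libraries.

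Of the other IFITM rows, the processed pseudogene IFITM4P had 22, 7 and 12 counts in sh-CBX7 and 17, 22 and 18 counts in sh-Control. Its log2 fold change was -0.53 (SE 0.39, edgeR adjusted p = 0.264), and its groups overlapped. IFITM5, the bone member of the family, and IFITM8P had 0 counts in each of the 6 libraries, and IFITM9P had 1 count in all. The IFITM5 window held no match to the motif.

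Levels can be set side by side only per length, and CPM were therefore divided by the deposited gene length in kilobases. In sh-CBX7, IFITM3 led with 699 ± 10.4 CPM per kilobase, followed by IFITM1 with 81.6 ± 6.81 and IFIT3 with 75.0 ± 1.73 (SD, n = 3). Next came IFIT1 with 36.8 ± 0.79, IFIT2 with 17.5 ± 0.73, IFITM2 with 14.7 ± 2.99, IFIT5 with 9.40 ± 0.39 and IFITM10 with 0.35 ± 0.12 CPM per kilobase. The libraries of IFITM1 and IFIT3 overlapped in sh-CBX7, as did those of IFIT2 and IFITM2.

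In sh-Control the order was different below IFITM3, which stood at 276 ± 11 CPM per kilobase (SD, n = 3). IFIT3 had 23.5 ± 0.99 and IFIT1 9.03 ± 0.33 CPM per kilobase. IFIT2 with 6.48 ± 0.08, IFIT5 with 6.05 ± 0.54, and IFITM1 with 5.98 ± 1.33 CPM per kilobase each overlapped the next, the last of them IFITM2 with 4.68 ± 1.12. IFITM10 came after a gap with 0.63 ± 0.02 CPM per kilobase. IFITM1 was thus second of the 8 in sh-CBX7 and sixth in sh-Control. Full lengths were used, although IFITM1 and IFITM2 share 32.5% and 22.7% of their exon bases with each other. Their places beside genes of near level are therefore less certain.

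Ratios of read counts between members within a library do not depend on the scaling between libraries, and 6 were compared. IFITM1 reads per IFITM3 read were 0.0985, 0.0968 and 0.0852 in sh-CBX7 and 0.0209, 0.0139 and 0.0172 in sh-Control, 5.46 times higher in sh-CBX7. IFIT5 per IFIT3 was 0.187, 0.198 and 0.187 in sh-CBX7 and 0.374, 0.380 and 0.418 in sh-Control, a 2.05-fold lower ratio in sh-CBX7. IFIT1 per IFIT3 averaged 0.856 in sh-CBX7 and 0.671 in sh-Control, and IFIT2 per IFIT3 averaged 0.362 in sh-CBX7 and 0.429 in sh-Control (geometric means, n = 3 each).

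IFIT3 per IFITM3 averaged 0.210 in sh-CBX7 and 0.167 in sh-Control. In these 5 ratios the groups did not overlap, and the exact two-sided permutation test gave p = 0.1 for each (adjusted p = 0.12 over the 6), the smallest p that 3 against 3 libraries allow. IFITM2 per IFITM3 averaged 0.0238 in sh-CBX7 and 0.0191 in sh-Control, with overlapping groups (exact permutation p = 0.3, adjusted p = 0.3). No ratio could therefore pass a threshold of 0.05 in this design. As a share of the family's CPM per kilobase, IFITM1 made up 10.3% ± 0.76 in sh-CBX7 and 2.07% ± 0.42 in sh-Control (SD, n = 3 each), while IFITM3 made up 87.9% ± 0.38 in sh-CBX7 and 96.1% ± 0.47 in sh-Control.

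**Figure D3:**
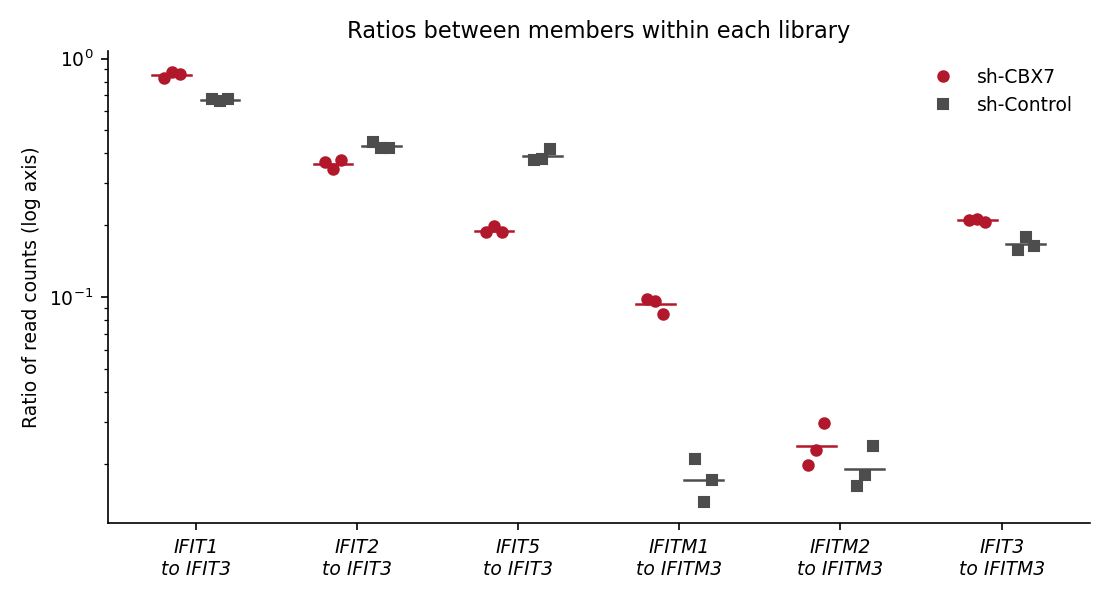
Ratio of read counts of pairs of members within each library (log axis), sh-CBX7 (circles) left of sh-Control (squares), with bars at the geometric means. The groups are farthest apart for IFITM1 to IFITM3 (0.0933 in sh-CBX7 and 0.0171 in sh-Control) and overlap for IFITM2 to IFITM3.

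The pathway around the 2 families was read from 7 lists of genes by role, 77 genes of which 67 were tested. In all, 46 rose and 11 fell (68.7% higher), beside 26.1% higher and 27.2% lower among all tested genes. The median log2 fold change was 0.63.

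At the top of the pathway, none of the 9 interferon ligand genes had enough reads to be tested. IFNB1, which encodes interferon beta, had 17, 11 and 8 counts in sh-CBX7 and 0, 1 and 0 counts in sh-Control. The ratio of summed counts, 36 in sh-CBX7 to 1 in sh-Control, was 34.6 after scaling (95% exact interval 5.83 to 1406, counting error only). The genes of 6 other ligands had 0 counts in each of the 6 libraries.

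Of 9 receptor and Janus kinase genes, 3 rose and 2 fell (median log2 fold change 0.21). These shares are near those of all tested genes, 26.1% higher and 27.2% lower. IFNGR2, a chain of the interferon gamma receptor, rose by 0.88 on the log2 scale, and IFNAR1, a chain of the interferon alpha and beta receptor, by 0.35. IFNLR1, a chain of the interferon lambda receptor, had -0.94. The kinase gene JAK2 rose by 0.38 (edgeR adjusted p = 0.0129), a call that was lost without sh-CBX7 replicate 2 (0.30, edgeR adjusted p = 0.0740). The fall of TYK2 (-0.20) was also lost, without sh-CBX7 replicate 2 or 3 or sh-Control replicate 1 (edgeR adjusted p = 0.0604 to 0.131) and with upper quartile factors (-0.15, edgeR adjusted p = 0.0815).

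The transcription factors were split, with 4 of 7 higher and 2 lower (median 0.31), beside 26.1% higher and 27.2% lower among all tested genes. IRF7, which amplifies interferon production, was at 42.8, 36.9 and 34.1 CPM in sh-CBX7 and at 8.17, 6.43 and 7.42 CPM in sh-Control. It rose by 2.37 on the log2 scale (SE 0.12, edgeR adjusted p = 1.31e-13), and IRF1 and IRF2 rose by 0.73 and 0.31. STAT2 rose by 0.28. IRF9 averaged 3.77 CPM in sh-CBX7 and 2.73 CPM in sh-Control, a log2 fold change of 0.48 (edgeR adjusted p = 0.0970) that passed only without sh-Control replicate 3 among the 14 alternative settings (0.73, edgeR adjusted p = 0.0233).

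Other interferon-induced effectors moved like most members: 26 of 27 rose and none fell (median 1.61), beside 26.1% higher among all tested genes. They included the RNA sensor OAS1 at 2.53, IFI27 at 2.13, the GTPase GBP1 at 2.07 and IFI6 at 2.04 on the log2 scale. MX1, a GTPase often used as a marker of interferon action, did not pass; it averaged 2.49 ± 0.38 CPM in sh-CBX7 and 2.02 ± 0.37 CPM in sh-Control (SD, n = 3 each; log2 fold change 0.30, edgeR adjusted p = 0.332). Its relative MX2 rose by 2.41.

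The list of nucleic acid sensors and adaptors had 7 of 10 tested genes higher and 1 lower (median 0.31), beside 26.1% higher among all tested genes. DDX58, the RIG-I gene, rose by 1.90 on the log2 scale, IFIH1, the MDA5 gene, by 1.5 and TLR3 by 0.73. CGAS, the sensor of cytosolic DNA, fell by 0.52. The rise of EIF2AK2, the PKR gene (0.22), was not called without sh-CBX7 replicate 1 or 2 or sh-Control replicate 1 (edgeR adjusted p = 0.0501 to 0.111). That of the kinase gene TBK1 (0.31) was not called without sh-Control replicate 1 (0.19, edgeR adjusted p = 0.0852). Of 5 feedback inhibitors 4 rose (median 0.40), led by the ubiquitin-like ISG15 at 2.39 and the deconjugating enzyme USP18 at 1.24, with SOCS3 and SOCS1 at 0.40 each.

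**Figure D4:**
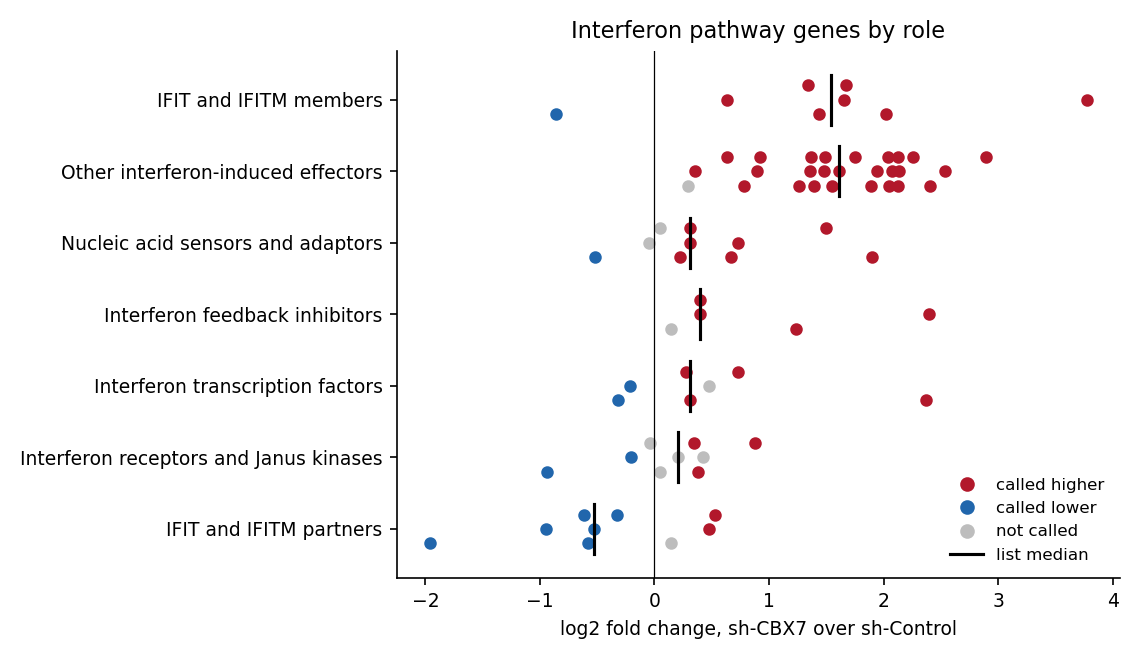
log2 fold change (sh-CBX7 over sh-Control) of each tested gene by role in the interferon pathway; colour gives the edgeR call and black bars the list medians. The members (median 1.55) and the other effectors (1.61) lie to the right of the receptors (0.21), and the partners (-0.53) lie to the left.

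Genes whose products work with or against the members were mostly lower, with 6 of 9 lower and 2 higher (median -0.53). Among all tested genes 27.2% were called lower and 26.1% higher. CD81, a tetraspanin that associates with IFITM1 at the cell surface, averaged 99.9 ± 3.08 CPM in sh-CBX7 and 388 ± 18.3 CPM in sh-Control (SD, n = 3 each; log2 fold change -1.96, SE 0.06, edgeR adjusted p = 1.93e-17). CMTR1, the cap ribose methyltransferase whose mark keeps IFIT1 off cellular RNA, was at 38.2, 37.7 and 44.4 CPM in sh-CBX7 and at 75.4, 77.9 and 78.9 CPM in sh-Control. It fell by 0.95 on the log2 scale (SE 0.07, edgeR adjusted p = 2.22e-10), while RNMT, which methylates the cap guanine, rose by 0.53. EIF3E, a translation initiation subunit that IFIT1 and IFIT2 bind, fell by 0.58, and ZMPSTE24, a protease that acts with IFITM proteins, fell by 0.53. NEDD4, a ubiquitin ligase of IFITM3, rose by 0.48. ZDHHC20, a palmitoyltransferase for IFITM3, had -0.33 and was not called without sh-Control replicate 2 (-0.20, edgeR adjusted p = 0.116), and EIF3C (-0.61) was not called by DESeq2 (adjusted p = 0.0842).

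The clusters were also compared with the genes around them. Near the IFIT genes, 4 protein-coding genes within 200 kb were tested and 1 rose, a share close to the 26.1% higher among all tested genes. That gene was LIPA, which encodes the lysosomal acid lipase, at 182 ± 6.33 CPM in sh-CBX7 and 98.1 ± 2.42 CPM in sh-Control (SD, n = 3 each; log2 fold change 0.89, SE 0.06, edgeR adjusted p = 1.58e-11). Its longest annotated form starts on the minus strand next to the IFIT5 start and spans IFIT2, IFIT3 and IFIT1 (GRCh38, chr10:89213569-89414557). LIPA shares 65 exon bases with IFIT2 (1.58% of those of IFIT2) and none with IFIT1, IFIT3 or IFIT5. PANK1 had -0.20 (edgeR adjusted p = 0.284). SLC16A12 had -0.32 and CH25H 0.89 (adjusted p = 0.198 and 0.0885 by edgeR). SLC16A12 was called lower without sh-Control replicate 1 (-0.52, edgeR adjusted p = 0.0233) and CH25H higher without sh-Control replicate 2 (1.41, edgeR adjusted p = 0.0322).

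Within 200 kb of IFITM1, IFITM2 and IFITM3, none of 10 tested protein-coding genes rose and 7 fell, with log2 fold changes from -0.59 to 0.25. Among all tested genes 26.1% were called higher and 27.2% lower. The lowest were BET1L at -0.59, SIRT3 at -0.54 and RNH1 at -0.52. PGGHG, next to the cluster, had -0.47. Outside the protein-coding genes, the antisense row AC136475.2, within the span of IFITM2, rose by 0.81 (edgeR adjusted p = 0.0202). It averaged 2.19 CPM in sh-CBX7 and 1.25 CPM in sh-Control. The antisense row AC136475.1, which overlaps the span of IFITM3, did not pass (-0.46, edgeR adjusted p = 0.431). PTDSS2 (-0.18) was not called without any 1 of sh-CBX7 replicates 1, 2 and 3 and sh-Control replicates 1 and 3 (edgeR adjusted p = 0.0756 to 0.155). It was not called by DESeq2 either (adjusted p = 0.0716), nor with upper quartile factors (-0.13, edgeR adjusted p = 0.131). PKP3 was called lower without sh-CBX7 replicate 1 or sh-Control replicate 2 (-0.43 and -0.40; edgeR adjusted p = 0.0212 and 0.0179), and with no filter on low counts (-0.30, edgeR adjusted p = 0.0441). Around IFITM10, which fell, the cathepsin gene CTSD rose by 0.66, DUSP8 had -0.47 and MRPL23 had -0.38, a value that lost its call in DESeq2 (adjusted p = 0.0856). The noncoding rows AC068580.3 and AC068580.1 near IFITM10 rose by 1.09 and 1.26 (edgeR adjusted p = 7.25e-06 and 1.91e-06).

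**Figure D5:**
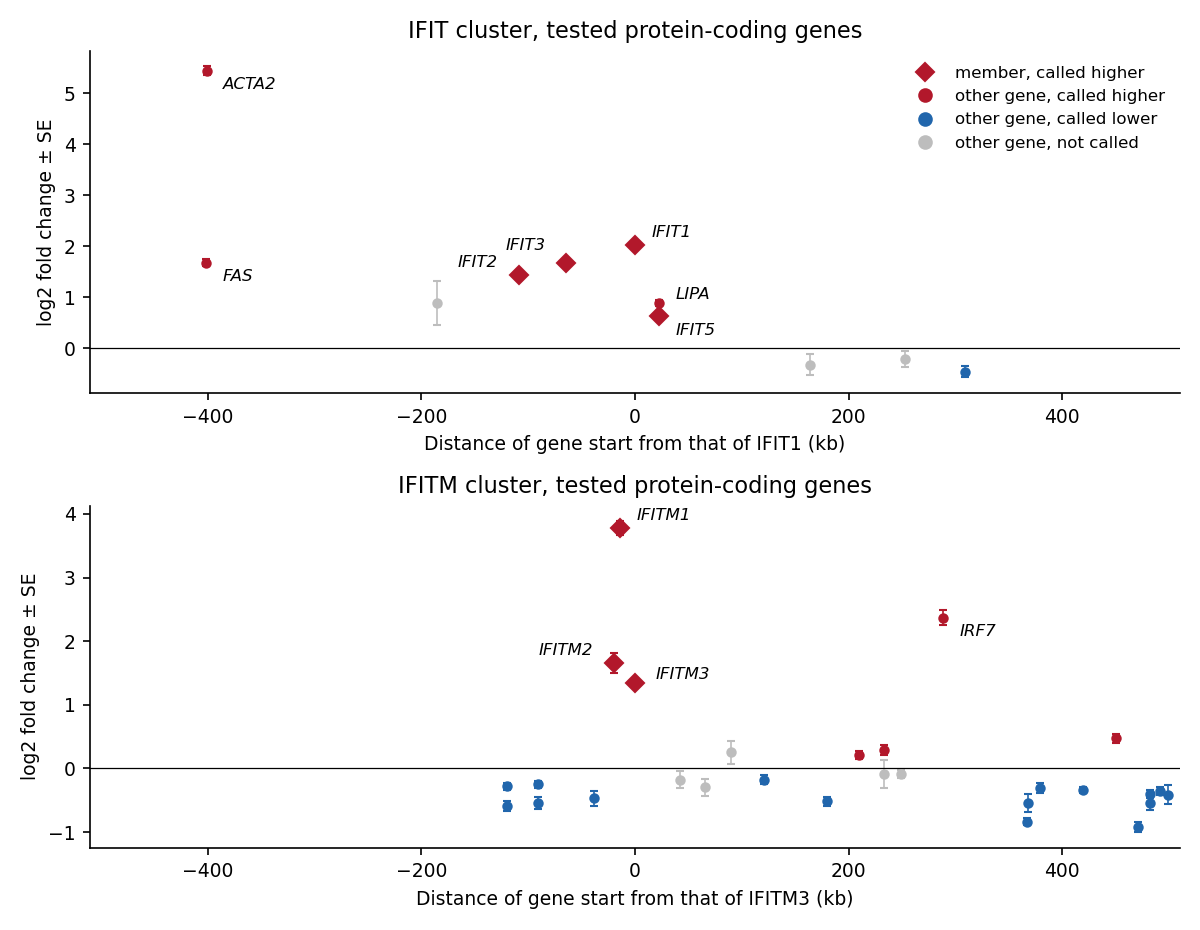
log2 fold change with SE of tested protein-coding genes by the distance of their start from that of IFIT1 (upper panel) or IFITM3 (lower panel), in kb. Members (diamonds) stand above their near neighbours, except that LIPA and CH25H at 0.89 each are above IFIT5 at 0.64; ACTA2 and FAS, labelled after their values were seen, and IRF7 lie farther out.

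Likeness over the 6 libraries was measured as the root mean square difference of centred log2(CPM + 0.5) values, among 10260 protein-coding genes that averaged 5 CPM or more. With 2 groups of 3 it mostly ranks genes by how near their group difference is. Among the closest to the mean of the 4 IFIT genes were CALD1 (0.0311), TNC (0.0429), PLAU (0.0527) and DDIT3 (0.0582). Closest to the mean of IFITM1, IFITM2 and IFITM3 were MYL9 (0.0825), SIGLEC15 (0.0921), GBP2 (0.0994), IFI27 (0.108) and PODXL (0.110). Their log2 fold changes, 2.13 to 2.27, were near that mean and not near IFITM1 (3.78), IFITM2 (1.66) or IFITM3 (1.34). The IFIT mean likewise blends members from 0.64 to 2.03.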

How the data were processed

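Per the labels' protocols, the 6 libraries are of poly-A RNA, captured on beads and prepared with a strand-keeping kit. The deposited table holds whole-number read counts per gene without normalization; HISAT2 2.0.5, featureCounts 1.5.0-p3, FastQC, Trimmomatic and the build hg19 are named per the submitters' processing notes. Order, strand setting and treatment of reads with several matches are not given in the sources used here. All 58735 gene positions equal GENCODE 29 (GRCh38), the build of the positions given. The deposited gene length, another value of the authors, was used for CPM per kilobase.

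Counts were filtered with filterByExpr, normalised with TMM and compared with the unpaired quasi-likelihood test of edgeR 4.0.16 (R 4.3.3), adjusted by Benjamini-Hochberg over 14573 genes and called below 0.05. SE is the log2 fold change over the square root of F. The test was checked on simulated counts in which few genes changed. Here 53.3% of tested genes were called, and the check does not cover changes that broad. Alternatives were DESeq2 1.42.0, limma 3.58.1 voom, other scalings and filters, a replicate block and leaving out each library. Libraries of a group differed by more than sampling noise (chi-square per gene 2.85 to 9.23). MB21D1 was matched to its current symbol, CGAS.

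Members and lists were chosen with earlier results of these data known. Named genes were the members, CBX7, up to 4 genes per role list by smallest p, tested protein-coding genes within 200 kb, the genes most alike, and other rows of the family; others (STAT2, IRF9, MX1, MX2, RNMT, NEDD4, TYK2, EIF2AK2, TBK1, ZDHHC20, EIF3C, LAPTM5, EGFL7, ACTA2, FAS) were chosen after their values were seen. The marker genes KRT8, KRT18, PAX8, PAX2, ROBO4, PECAM1, KDR, LUM, COL1A1, PDGFRA and PDGFRB were likewise chosen after their values were seen. So were the noncoding neighbours AC136475.2, AC136475.1, AC068580.3 and AC068580.1. Neither the marker genes nor these neighbours were followed under the alternative settings. Sequences are from RefSeq (GRCh38.p14), with windows for 5 of 8 members. IFIT2, IFITM2 and IFITM10 were not matched. Some genes covered by the rule are not reported here.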

Additional observations from a re-analysis of the deposited data

How the results depend on the processing

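Under 14 alternative settings, 7 of the 8 members kept direction and call: IFIT1 ranged from 2.00 to 2.08 on the log2 scale, IFIT2 from 1.41 to 1.48, IFIT3 from 1.64 to 1.72, IFIT5 from 0.58 to 0.70, IFITM1 from 3.60 to 3.94, IFITM2 from 1.48 to 1.86 and IFITM3 from 1.31 to 1.39. IFITM10 kept its direction; leaving out single libraries moved it between -1.11 and -0.64, and without sh-CBX7 replicate 2 it was no longer called (edgeR adjusted p = 0.0525), so 0 to 1 members were called lower in those fits. The settings were also applied to 98 other genes. These were CBX7, the tested pathway genes, tested protein-coding genes within 200 kb, the genes most alike, and ACTA2, FAS, LAPTM5 and EGFL7. Of the 98, 85 kept their call in each setting and 0 called genes reversed. Replicate numbers are not said to pair libraries, and same-numbered libraries deviated together at correlations of 0.0553, 0.0614 and 0.0353, each higher than with other numbers. With the number as a replicate block, 3972 genes were higher and 4126 lower, against 3799 and 3967 without it, and no member's call changed; of the other 98 genes only PKP3 changed, to lower (-0.30, edgeR adjusted p = 0.0192). Leaving out libraries from the 6 ratios, an alternative added after seeing the data, turned no direction. Levels by coding length were not run. Depth limits IFITM10 most, with 18 to 57 counts per library, an SE of 0.26 and the loss of call above; IFITM3 had 6230 to 18052 counts and an SE of 0.05.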
